A study of Mus musculus with 9 samples.

Results

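The miR-15 and miR-16 family of microRNAs (miRNAs), with miR-195 and miR-497, was read with 5 of the 566 mouse miRNA probes of a NanoString nCounter panel, taken by name: mmu-miR-15a, mmu-miR-15b, mmu-miR-16, mmu-miR-195 and mmu-miR-497, written without the species prefix from here on. The samples were whole lungs of C57BL/6 embryos at E18.5, shortly before birth, 5 wild type (numbered 1 to 5) and 4 homozygous for the allele written Bim3'UTRmut/mut (numbered 6 to 9, called mutant here), a changed 3′ untranslated region of the pro-apoptotic gene Bim. Each lane counts reporter-labelled molecules from 100 ng of total RNA, and mouse miRNA probes summed to 206964 to 289227 counts per sample. The panel reads no Bim mRNA, so the allele was not checked in these counts. The lane table's comment calls sample 5 mutant while its title calls it wild type, and the title was followed, with the other reading given where it matters. No label ties the samples to separate litters or dissections, so the samples may not be independent. The p-values weigh a genotype difference only against the spread between these samples.

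Wild type 3 and mutant 8 stood apart before any comparison. The cardiac miRNA miR-208a, made from an intron of a myosin heavy chain gene of heart muscle, read 15 to 54 counts in 7 samples but 1202 in wild type 3 and 1271 in mutant 8. The 7 heart and skeletal muscle markers, miR-208a included, summed to 11.05% and 11.95% of mouse miRNA counts in these samples, against 0.136% to 0.227% elsewhere. Only 3 of the 7 exceeded the background of negative control probes in at least 4 samples. Of these, miR-1 and miR-133a were above the other 7 samples in both, and miR-206 in mutant 8 only. No marker probe of any list was at 0 in every sample. The 5 epithelial markers of the miR-200 family summed to 0.265% and 0.411%, against 2.70% to 3.13%. Both samples therefore lacked most of the epithelial signal that the label lung implies, and results that rest on them are given with and without them.

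An miRNA pairs with target mRNAs mainly through its seed, the bases near its 5′ end, and lowers their stability and translation. The miR-15/16 family is known for holding back cell division and survival: in human cells miR-15a and miR-16 act on BCL2, the survival protein that Bim binds, and on cyclins of the G1 phase, and their locus is often deleted in chronic lymphocytic leukaemia. In the mouse heart, miR-195 rises shortly after birth, when muscle cells leave the cell cycle. miR-16 is made in most tissues.

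The mature sequences are shown because the family is defined by its seed and because close sequences bear on how far probes can tell members apart. They are RefSeq sequences on GRCm38.p6, written 5′ to 3′, with bases 2 to 8 in capitals. All 5 members were matched to a RefSeq entry.
mmu-miR-15a: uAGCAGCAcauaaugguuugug
mmu-miR-15b: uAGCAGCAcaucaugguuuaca
mmu-miR-16: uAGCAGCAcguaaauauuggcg
mmu-miR-195: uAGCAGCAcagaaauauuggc
mmu-miR-497: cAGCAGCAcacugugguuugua

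All 5 share the seed AGCAGCA and differ behind it. miR-16 and miR-195 were the closest, with 2 mismatches over 21 bases, G10A and U11G (the base in miR-16, its position from the 5′ end, the base in miR-195). miR-15a and miR-15b differed at 4 of 22 bases. miR-16 and miR-497 were the farthest apart, with 11 of 22. Of 1679 mature mouse miRNAs in the RefSeq table, 10 carried this seed, and 6 of these were on the panel, the sixth being miR-322.

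The members come from 3 loci. Mir15a (chr14:61632027-61632110) and Mir16-1 (chr14:61631880-61631972) lie 54 bases apart within the span of the long noncoding gene Dleu2. Mir15b (chr3:69009772-69009835) and Mir16-2 (chr3:69009902-69009996) lie 66 bases apart within the span of Smc4, which encodes a condensin subunit. Mir195a (chr11:70235042-70235135) and Mir497 (chr11:70234717-70234800) lie 241 bases apart. The miR-16 probe reads the product of both Mir16 genes, since their mature sequence is the same, so its count cannot be divided between the Dleu2 and Smc4 loci.

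The family was carried by miR-16, miR-15b and miR-15a, which in 9 of 9 samples read above lane background, a threshold set at 2 SD over the mean of 8 negative control probes. By mean count miR-16 ranked 2 among the 566 mouse probes, miR-15b 12 and miR-15a 22. Counts of different probes also depend on how well each probe works, so this is an order of counts and not of molecules.

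miR-16, the most abundant member, read 18030, 14268, 8120, 13749 and 16913 counts in wild types 1 to 5 and 17086, 19223, 14890 and 15909 in mutants 6 to 9. Wild type 3 was the lowest by a wide margin, and the groups overlapped. miR-15b, encoded next to Mir16-2, read 6157, 5286, 3053, 5566 and 5958 counts in the wild types and 5882, 6420, 5606 and 5528 in the mutants. Wild type 3 was again the lowest, and mutant 8 was within the range of the rest.

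miR-15a, encoded next to Mir16-1, read 3322, 3865, 1309, 3277 and 3890 counts in the wild types and 2668, 3858, 2173 and 3574 in the mutants. Here both samples with high miR-208a, wild type 3 and mutant 8, were the lowest, followed by mutant 6. The Poisson counting SD of the lowest of these counts, 1309, is 36.2, so counting error is small against the differences between samples for these 3 members.

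miR-195 and miR-497, which share a locus, read near background. miR-195 read 55, 45, 27, 32 and 64 counts in wild types 1 to 5 and 70, 58, 26 and 47 in mutants 6 to 9, and exceeded the lane threshold in 0 of 9 samples. miR-497 read 68, 90, 51, 38 and 123 counts in the wild types and 82, 63, 61 and 45 in the mutants, and exceeded the threshold in 1 of 9, wild type 1, where the threshold was 56.3. Against the mean negative control of the same lane, miR-195 ranged from 0.700 to 1.96 times and miR-497 from 1.14 to 2.42 times. By mean count they ranked 349 and 265 of 566.

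A repeat lane was available for samples 1, 5 and 6, and the calls of these low members changed with the lane. In mutant 6, miR-195 read 70 and 71 counts in its lanes while the threshold was 151.9 and 63.8, so it passed only in the second. miR-195 also passed in the second lane of sample 5, with 100 counts. miR-497 passed in the second lanes of samples 5 and 6, with 87 and 100 counts, and not in the second lane of sample 1, with 80. A level of miR-195 or miR-497 was therefore not measurable above background in most lanes, and neither was kept for the test across probes.

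**Figure D1:**
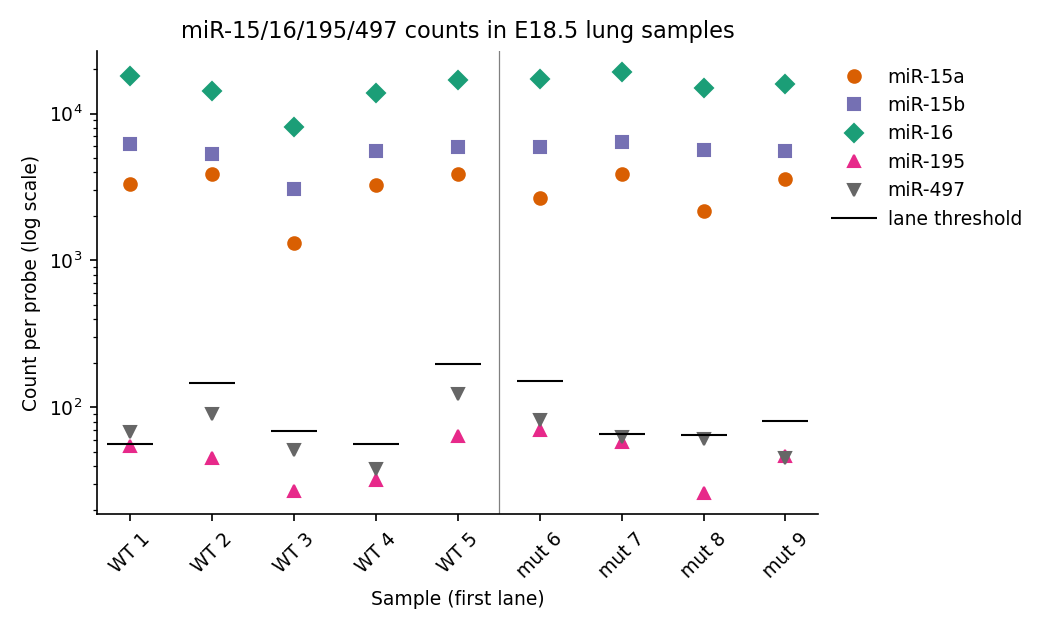
Counts per probe (log axis) of the 5 members in the first lane of each sample, with the background threshold of each lane as a black dash. miR-16, miR-15b and miR-15a lie far above the threshold in 9 of 9 samples, while miR-195 lies below it in 9 of 9 and miR-497 in all but wild type 1.

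Shares of the kept counts (the 189 mouse probes above the lane threshold in at least 4 samples) describe how much of the lung profile the family held. The 5 members together held 10.1% ± 1.44 (SD, n = 9), and 10.6% ± 0.786 (n = 7) without wild type 3 and mutant 8, which were at 6.75% and 10.05%. miR-16 made up 60.6% to 66.3% of the family's counts, miR-15b 21.7% to 24.6% and miR-15a 9.55% to 16.4%. miR-195 and miR-497 together gave 70 to 187 counts per sample, or 0.309% to 0.694% of the family, without subtracting background. The miR-16 count was 85.6 to 320 times the threshold of its lane. In whole-lung RNA, fewer cells of a type and less RNA per cell cannot be told apart.

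Ratios of counts within a lane do not depend on scaling and set the loci against each other. The ratio of miR-15b to miR-16 was the steadiest, at 0.334 to 0.405 over the 9 samples. The ratio of miR-15a to miR-16 ranged more widely, from 0.146 in mutant 8 to 0.271 in wild type 2. The lowest values were mutant 8, mutant 6 at 0.156 and wild type 3 at 0.161, and the next was wild type 1 at 0.184.

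Repeat lanes of the same RNA show how much of this spread comes from the lane. The ratio of miR-15a to miR-16 was 0.184 and 0.199 in the lanes of sample 1, 0.230 and 0.174 in those of sample 5, and 0.156 and 0.134 in those of sample 6. Mutant 6 was thus low in both its lanes, while the lanes of sample 5 differed by nearly as much as some samples did. On log2 shares of kept counts, the SD between lanes over the 3 samples was 0.14 for miR-15a, 0.06 for miR-15b and 0.09 for miR-16.

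**Figure D2:**
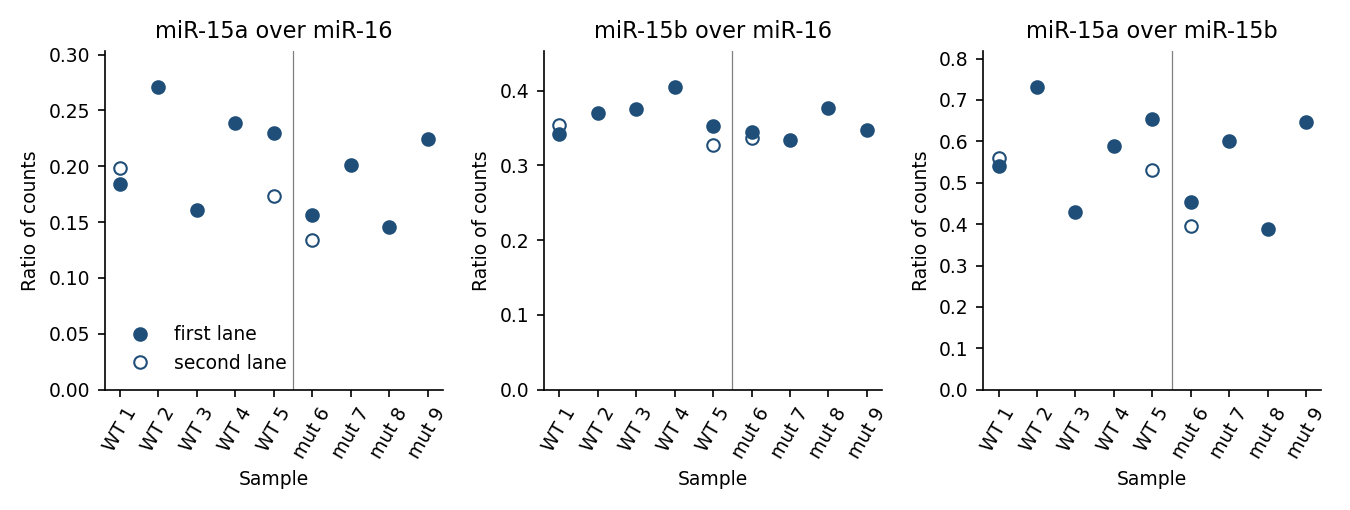
Ratios of counts within a lane for miR-15a over miR-16, miR-15b over miR-16 and miR-15a over miR-15b, by sample. Filled points are the first lanes and open points the second lanes of samples 1, 5 and 6. miR-15b over miR-16 stays between 0.327 and 0.405 in all 12 lanes, and the ratios with miR-15a are lowest in wild type 3, mutant 6 and mutant 8.

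The genotype comparison asks whether changing the Bim 3′ untranslated region alters miRNA levels in the lung, and no member of the family passed the test. It was run with edgeR's quasi-likelihood test on all 189 kept probes, of which 0% passed at an adjusted p of 0.05 (0 of 189, and 5 of 189 or 2.65% at an unadjusted p under 0.05, 3 of these or 1.59% higher in the mutant, none of them in the family; DESeq2 gave 0 and 9).

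miR-16 read higher in the mutant, with a log2 fold change of 0.20 ± 0.12 (SE, 5 against 4; 95% interval -0.06 to 0.46; edgeR adjusted p = 0.997). Its normalized level, log2 CPM (counts scaled to the library size), was 16.08, 15.77, 15.57, 16.03 and 15.87 in the wild types and 16.03, 16.22, 15.94 and 16.11 in the mutants, so mutants 6 and 8 fell among the wild types. Without wild type 3 and mutant 8 the value was 0.18 ± 0.10, and with sample 5 counted as mutant it was 0.16. Between lanes of the same RNA (second minus first), the log2 share of miR-16 differed by 0.03 in sample 1, 0.23 in sample 5 and -0.03 in sample 6. These are differences between single lanes, while the genotype value is a difference between groups of 5 and 4 samples. The part of the lane in the genotype value was not tested.

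miR-15b had a log2 fold change of 0.13 ± 0.13 (95% interval -0.17 to 0.42) and miR-15a of -0.04 ± 0.25 (-0.60 to 0.51), both with an edgeR adjusted p of 0.997. Without wild type 3 and mutant 8 these were 0.08 ± 0.12 and -0.05 ± 0.16. The sign of miR-15a turned to 0.10 with housekeeping mRNA scaling, which moved the median of all 189 probes from -0.03 to 0.11. Of the 3 tested members 2 read higher and 1 lower, with a median of 0.13, and over all 189 probes 76 (40.2%) read higher. Wild type and mutant levels overlapped for each of the 3, as they did for all but 1 of the 189 probes (0.529% did not overlap).

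As a share of kept counts, wild type lungs held 5.92% ± 0.992 miR-16 (SD, n = 5) and mutant lungs 7.10% ± 0.358 (n = 4). miR-15b held 2.18% ± 0.372 and 2.48% ± 0.0279, and miR-15a held 1.30% ± 0.351 and 1.30% ± 0.297. The family together held 9.44% ± 1.63 and 10.9% ± 0.596. This difference of 1.48 percentage points, which was not tested because members were chosen with results known, lay between the SDs of the groups. It was 0.807 points without wild type 3 and 1.10 without both wild type 3 and mutant 8.

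The first lanes of samples 2, 5 and 6 had a higher mean negative control, 64.3 to 79.1 counts against 28.1 to 39.5 in the other first lanes. This background differed between lanes of the same sample: samples 1, 5 and 6 were at 28.1, 79.1 and 66.8 in their first lanes. Their second lanes were at 67.1, 44.9 and 29.4. The other samples had no repeat lane. The values below are from first lanes. Within these higher-background lanes miR-16 was at a mean log2 CPM of 15.82 in 2 wild types and at 16.03 in 1 mutant. In the lower-background lanes the 3 wild types averaged 15.90 ± 0.28 and the 3 mutants 16.09 ± 0.14 (SD). miR-16 thus read higher in the mutant in both sets of lanes. In the lower-background lanes the difference lay between the SDs of the groups. The higher-background set holds 1 mutant, so it has no mutant SD and its direction carries little weight. The part of lane background in the difference was not tested by this split. miR-15a was at 13.82 and 13.35 in the higher-background lanes and at 13.52 ± 0.53 and 13.68 ± 0.44 in the lower-background lanes, so its direction differed between them.

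**Figure D3:**
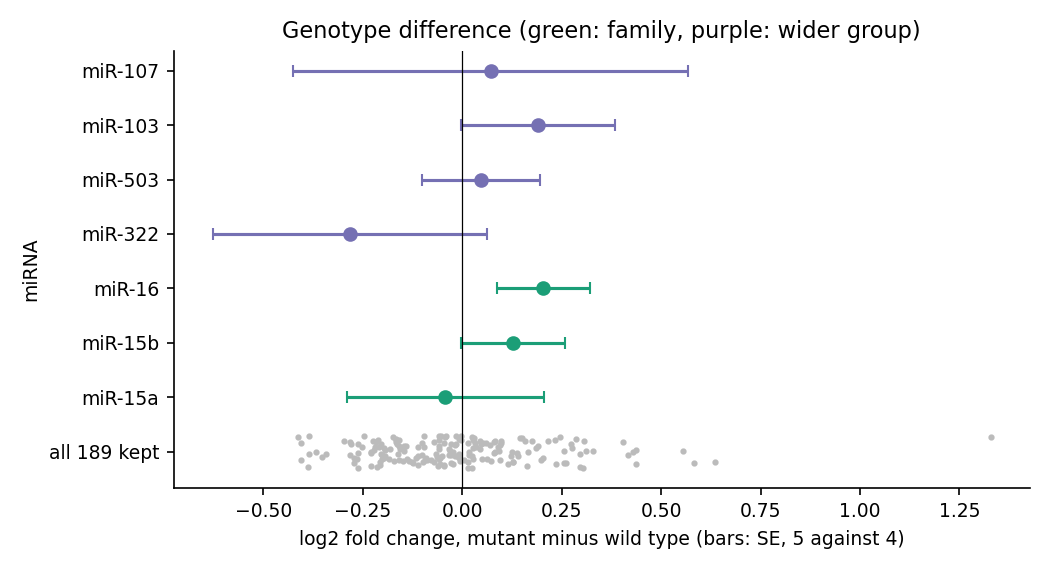
Log2 fold changes of the mutant against the wild type (bars are SE, 5 against 4 samples) for the 3 tested family members in green and 4 further AGCAGC miRNAs in purple, with all 189 kept probes in grey. The family values, from -0.04 to 0.20, lie within the spread of the other probes.

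No ratio between members passed the test by genotype. Each of 4 log2 ratios was tested by exact permutation of the sample labels, two-sided, with a smallest possible p of 0.00794 and adjustment over the 4. The log2 ratio of miR-15a to miR-16 averaged -2.23 ± 0.30 over 5 wild types (SD) and -2.48 ± 0.29 over 4 mutants, a difference of -0.25 (exact permutation p = 0.254, adjusted 0.476). miR-15b to miR-16 was -1.44 ± 0.09 and -1.51 ± 0.07, a difference of -0.07 (exact permutation p = 0.246, adjusted 0.476). Within the lower-background lanes the miR-15a ratio was -2.38 ± 0.29 in 3 wild types and -2.42 ± 0.32 in 3 mutants. In the higher-background lanes the unlogged ratio was 0.271 and 0.230 for wild types 2 and 5 and 0.156 for mutant 6, so the difference was read mainly in those 3 lanes.

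The ratios with the chr11 locus compare counts near background and say little about it. miR-195 to miR-16 was -8.34 ± 0.26 in the wild type and -8.47 ± 0.51 in the mutant (exact permutation p = 0.619, adjusted 0.619). miR-497 to miR-195 was 0.68 ± 0.37 and 0.38 ± 0.58 (exact permutation p = 0.357, adjusted 0.476). Without mutant 8 the latter difference went from -0.30 to -0.59, with an unadjusted exact permutation p of 0.0357. Fitted without a filter on low counts, miR-195 had a log2 fold change of 0.20 ± 0.26 and miR-497 of -0.16 ± 0.21 (edgeR adjusted p = 0.999 for both).

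In the samples with miR-208a above 500 counts, miR-15a was lower than in the other 7 while miR-15b and miR-16 were not consistently so. This split comes from a measured value, so it is described and not tested. The log2 CPM of miR-15a ranged from 13.35 to 13.96 in the other 7 (median 13.88), while wild type 3 was at 12.94 and mutant 8 at 13.17. It lay 0.95 and 0.72 under that median, relative to a median shift over all 189 probes of 0.10 and -0.03.

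For miR-16 wild type 3 was at 15.57 and mutant 8 at 15.94, with the other 7 from 15.77 to 16.22. miR-15b was at 14.16 and 14.53, against 14.33 to 14.73. Only wild type 3 was below the range for these members, and mutant 8 lay inside it. Of the 189 kept probes, 38 (20.1%) were below the other 7 in both samples. Wild type 3 was below for 54 (28.6%) and mutant 8 for 52 (27.5%), so a low value in either is common. In alternatives that were all added after the data were seen, miR-15a was also the only one of the 3 below in both samples in raw counts, after background subtraction, with summed lanes and after scaling by total count, positive controls or housekeeping mRNAs. Scaling by the 100 most abundant probes put all 3 members below the range in both samples, with 33.9% of the kept probes.

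The ratio of miR-15a to miR-15b, added after the values were seen, was 0.429 in wild type 3 and 0.388 in mutant 8. It was 0.454 in mutant 6 and 0.540 to 0.731 in the remaining 6. The second lane of mutant 6 gave 0.396, below wild type 3, so this ratio does not set the high miR-208a samples apart. In wild type 3 and mutant 8, heart and skeletal muscle markers were high in sum and epithelial markers low, as given above. The 5 smooth muscle and mesenchyme markers also summed to less than in the other 7, at 5.76% and 5.64% against 7.14% to 8.59%. They did not move alike: miR-199a-3p, miR-199a-5p and miR-214 were below the other 7 in both samples in log2 CPM. miR-143 was above them in both, by 0.91 and 1.14 from their median, and miR-145 was neither below nor above in both. The 2 endothelial markers summed to 9.49% and 7.17% against 11.3% to 12.7%. In log2 CPM neither miR-126-3p nor miR-126-5p was below the other 7 in both samples. The 6 blood markers summed to 0.938% and 1.37% against 0.906% to 1.49%, within the range. They did not move alike either: in log2 CPM miR-223 was below the other 7 in both samples and miR-142-5p above them in both. miR-142-3p was at -0.11 from their median in wild type 3 and at 2.61 in mutant 8. miR-144, miR-150 and miR-451 were neither below nor above in both. The part of these marker differences in the miR-15a values was not tested. Mutant 6 was among the other 7 samples, in which heart and skeletal muscle markers held at most 0.227%, and its own share is not given separately.

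**Figure D4:**
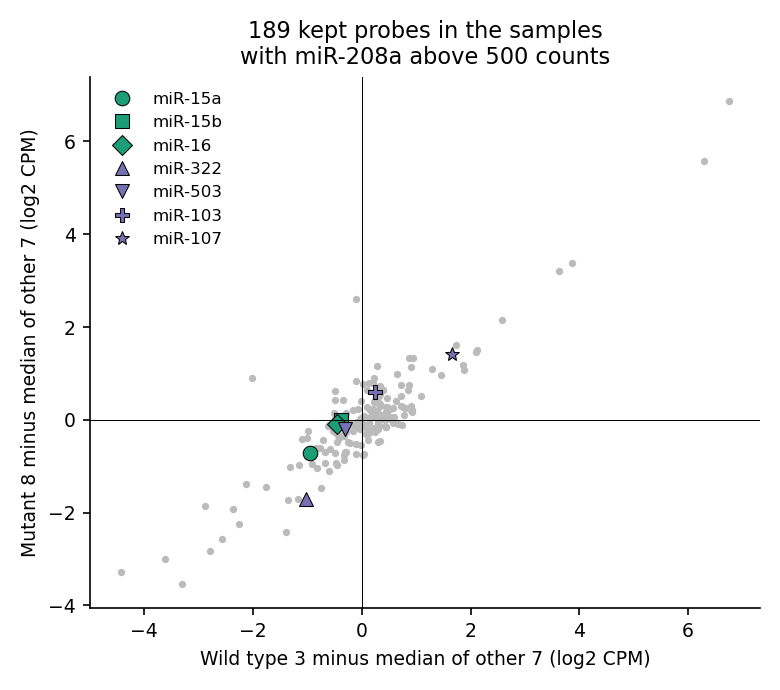
Log2 CPM of wild type 3 (horizontal axis) and mutant 8 (vertical axis), each minus the median of the other 7 samples, for all 189 kept probes in grey. Family members are in green and the 4 further AGCAGC miRNAs in purple. miR-15a lies below 0 on both axes, miR-16 and miR-15b lie below 0 mainly in wild type 3, and miR-107 and miR-322 lie farther out in opposite directions.

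Across samples miR-16 and miR-15b were among the steadier probes. Over 9 samples the SD of log2 CPM was 0.20 for miR-16, 0.17 for miR-15b and 0.38 for miR-15a, against a median of 0.32 over the kept probes. In the 7 samples without wild type 3 and mutant 8 it was 0.15, 0.14 and 0.22, against a median of 0.22. The steadiness of miR-16, which is often used as a reference miRNA in other assays, was thus shared by many probes: 26 of 189 varied less over 9 samples and 41 over 7.

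Likeness was measured as the SD over samples of the difference in log2 CPM from miR-16, smaller values meaning a more alike pattern. Over 9 samples miR-15b was at 0.09, and 0 of the 186 kept probes outside the family were closer. The closest outside the family were miR-410 at 0.11, miR-377 at 0.16 and let-7b at 0.17, against a median of 0.38. miR-15a was at 0.31, with 55 probes closer. In the 7 samples, miR-125b-5p (0.07), miR-99b (0.08) and miR-1186 (0.08) came nearest, 5 probes were closer to miR-16 than miR-15b was, and 94 were closer than miR-15a. The order of miR-15b before miR-15a held in both sets, and the names of the nearest outside probes did not. miR-195 was not ranked, since it was not above background.

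A wider group of panel miRNAs shares the bases AGCAGC with the family, and 4 of them were read. miR-322 has the same seed, miR-503 differs in base 8, and in miR-103 and miR-107 the shared bases start 1 base earlier.
miR-322: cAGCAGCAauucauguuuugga
miR-503: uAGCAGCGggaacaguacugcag
miR-103: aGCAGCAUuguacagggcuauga
miR-107: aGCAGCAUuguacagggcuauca
miR-322 and miR-503 are encoded together on chromosome X, and miR-103 and miR-107, in introns of pantothenate kinase genes, differ at 1 of 23 bases (G22C, miR-103 first), so their probes may not tell them apart fully.

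None of the 4 passed the genotype test (edgeR adjusted p = 0.997 for each, 3 higher and 1 lower, median log2 fold change 0.06). miR-322 was at -0.28 ± 0.34, at -0.023 without mutant 8 and at -0.18 ± 0.12 without wild type 3 and mutant 8. miR-103 was at 0.19 ± 0.19, at 0.044 without mutant 8 and at 0.10 ± 0.16 without both. miR-322 ranked 8 by mean count, with 2718 to 11256 counts, and held 3.17% ± 1.07 of kept counts (SD, n = 9). Like miR-15a it was low in the high miR-208a samples, at 14.18 and 13.49 log2 CPM against 14.81 to 15.33. miR-107 ran the other way, at 11.61 and 11.38 against 9.49 to 10.13. miR-103 was also above the other 7 in both, by little in wild type 3, at 11.554 and 11.899 against 11.057 to 11.550. Probes outside the group were above in both too, so this was not particular to miR-103 and miR-107. Among them were the heart and skeletal muscle markers miR-1 and miR-133a, and also miR-143 and miR-142-5p. The share of all kept probes above in both is not given, so the values of miR-103 and miR-107 are only described. The ratio of miR-107 to miR-103 was 0.335 to 0.426 in 7 samples, 0.697 in mutant 8 and 1.04 in wild type 3. miR-503 exceeded the lane threshold in 6 of 9 samples, at 79 to 186 counts. Probes that share the seed AGCAGCA were thus not all low in wild type 3 and mutant 8. miR-15a and miR-322 were below the range of the other 7 in both, and miR-16 and miR-15b in wild type 3 only. miR-195 and miR-497 carry the seed too but were near background. miR-195 read 27 and 26 counts in wild type 3 and mutant 8, against 32 to 70 in the other 7. miR-497 read 51 and 61, against 38 to 123.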

How the data were processed

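The authors deposited raw nCounter counts per probe, per the labels' protocols from 100 ng of total RNA, and no header or label names a background step or a normalization. A second table, per the file headers, held the counts (an "other" unit in which lane settings stand above the probes) of 12 lanes on 1 cartridge, including repeat lanes of samples 1, 5 and 6. The first lanes, used here, matched the count table in each of 5634 values. Repeat lanes count as 1 replicate.

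A mouse probe was kept if at least 4 samples exceeded the lane background (mean of the 8 negative controls, plus 2 SD) (189 of 566). edgeR 4.0.16 in R 4.3.3 tested them (library sizes from kept probes, TMM, glmQLFit and glmQLFTest, no covariate, Benjamini-Hochberg at 0.05). SE is the log2 fold change over the root of F. Log2 CPM used a prior count of 2. Fits were tested on simulated data. Ratios were tested by exact permutation.

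The members, marker lists and alternatives were chosen with earlier results of these data known. Named probes are the 5 members, the wider AGCAGC probes, miR-208a, the 3 probes most like miR-16 and probes of the marker lists. Panel names carry no arm: the arm holding AGCAGC was taken. Sequences and loci come from RefSeq tables of GRCm38.p6. Alternatives were DESeq2 1.42.0, limma 3.58.1, other scalings, filters, background subtraction, lane background as a covariate, left-out samples, sample 5 as mutant and summed lanes. Figures were made with Python 3.11.15 and matplotlib 3.10.9.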

Additional observations from a re-analysis of the deposited data

Results flagged for a closer look

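A gap test for single outliers was run on 30 groups of 4 or 5 values and marked 2 values, where chance marks about 1 in 20 groups. The log2 CPM of miR-322 was far below the other wild types in wild type 3 (14.18). The ratio of miR-497 to miR-195 was far above the other mutants in mutant 8 (2.35), from counts of 61 and 26 that were both under the lane threshold. No log2 CPM of miR-15a, miR-15b or miR-16 was marked. The miR-208a counts, which split the samples, were left out of this test.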

How the results depend on the processing

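No probe was called by genotype in any of the 22 alternatives (0 of the probes tested in each, smallest adjusted p 0.389). miR-16 and miR-15b kept their sign in all 22, at 0.14 to 0.35 and 0.06 to 0.28, and neither passed in any. miR-15a changed sign to 0.026 with limma, 0.0019 with total count, 0.021 with positive controls, 0.10 with housekeeping mRNAs, 0.044 with no filter and 0.00055 with sample 5 as mutant, and leaving out single samples gave -0.18 to 0.085. miR-107 was at -0.17 with sample 5 as mutant and at -0.41 to 0.63 without single samples, and miR-503 at -0.046 to 0.12. The difference in the log2 ratio of miR-195 to miR-16 changed sign to 1.07 after background subtraction, 0.13 without samples 3 and 8 and 0.028 with sample 5 as mutant, and ranged from -0.31 to 0.10 without single samples. That of miR-497 to miR-195 was -1.74 after background subtraction and -0.13 with sample 5 as mutant, and ranged from -0.59 to -0.16 without single samples. Those of miR-15a and miR-15b to miR-16 kept sign, with an exact permutation p above 0.05, in 13 alternatives each: without single samples the first ranged from -0.36 to -0.15 (lowest in size without mutant 8) and the second from -0.11 to -0.039 (lowest in size without wild type 4). The family share difference was 0.807 to 1.81 points over its 14 alternatives. For samples 3 and 8 all 7 alternatives were added after seeing the data: 6 gave 1 member below the other 7 samples in both, as reported, and scaling by the 100 most abundant probes gave 3. The causes were not tested. No paired analysis was possible because litter and dissection are not labelled, so any pairing of wild type and mutant samples is unknown. Background limits miR-195 and miR-497: their first-lane counts were 0.307 to 0.978 and 0.540 to 1.21 times the lane threshold. In wild types 2, 3 and 5 and mutant 8, miR-195 was at 0.700, 0.720, 0.809 and 0.751 times the mean negative control. Subtraction leaves it no positive count in those samples, so the background-subtracted ratio values with miR-195 say little.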
